A study of Mus musculus with 39 samples.

Results

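The RNAs of tubulins, kinesins, dyneins, dynactin and the proteins that fold tubulin or bind microtubules were followed across sucrose gradients of mouse liver. Members were the genes in both abundance tables whose symbol starts with Tuba, Tubb, Tubg, Kif, Klc or Dctn followed by a number, or with Dync1, Dync2 or Dynl, together with Map4, Mapre1, Clip1, Pafah1b1 and the tubulin cofactors Tbca, Tbcb, Tbcc, Tbcd and Tbce. This rule gave 59 of the 13230 genes in both tables. Another 6 symbols met the rule in only 1 table and were not used, with Tuba8, Kif7, Kif23, Kif26a and the antisense RNA Kif16bos in gradient 1 and Kif20b in gradient 2.

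The samples were livers of wild type female mice of the FVB strain, with no treatment and no other genotype, and the age was not given in the sources used here. In ATLAS-Seq, tissue is broken without detergent, nuclei are spun out, and the remaining homogenate is spread by velocity over a sucrose gradient, so that large assemblies travel further than small ones. A gradient was made from each of 2 mice, and RNA depleted of ribosomal RNA was sequenced from 17 fractions of gradient 1 (numbers 4 to 19, and 21) and 22 fractions of gradient 2 (numbers 3 to 24), where low numbers are light. Each fraction gave 1 library from the same mass of RNA, so the values, in TPM (transcripts scaled to the same total in every library), are shares of the RNA within a fraction and not amounts per fraction. TPM holds no read counts, so the depth of each library is unknown here, and error was judged from how far the 2 gradients differed.

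Microtubules are polymers of alpha- and beta-tubulin dimers. Gamma-tubulin starts new microtubules, the cofactors Tbca to Tbce take freshly folded alpha- and beta-tubulin and join them into dimers, and cytosolic chaperonin folds both beforehand. Kinesins mostly walk to the plus end of a microtubule and cytoplasmic dynein to the minus end, the latter with dynactin as its activator. In hepatocytes these motors carry vesicles, endosomes, lipid droplets and organelles between the sinusoidal and the canalicular sides of the cell.

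Of the 59 members, 50 had a mean of at least 1 TPM in the zones that were compared and were tested. The other 9 (Kif3c, Kif9, Kif11, Kif20a, Kif21b, Kif22, Kif24, Dync2li1 and Dynlt1b) had a mean over all libraries of 0.401 to 0.975 TPM and a highest value of 1.45 to 2.71 TPM. The kinesins of the mitotic spindle are within that low group: 3 (Kif11, Kif20a and Kif22) were in both tables and none of the 3 was tested. The tested members spanned 0.979 TPM (Dynlt1a) to 229 TPM (Tuba4a) in mean level, with a median of 31.1 TPM beside 15.1 TPM for all 11754 genes tested. All members summed took 0.183 to 0.386% of the TPM of a library in gradient 1 and 0.151 to 0.320% in gradient 2.

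Zones of 4 neighboring fractions were compared: a light zone (fractions 4 to 7), a middle zone (10 to 13) and a dense zone (16 to 19). Values were averaged within a zone of a gradient as log2(TPM + 1), and limma tested the difference over the 2 gradients, with Benjamini-Hochberg adjustment over all 11754 genes. A gene was called when its adjusted p was under 0.05. Changes are on the log2(TPM + 1) scale, which understates those of low RNAs, and fold values are ratios of mean TPM.

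Between the dense and light zones, 22 of the 50 members were called higher in the dense zone and 9 lower, 62% in all, where 61.9% of all genes were called (22.3% higher and 39.6% lower). The share called was thus that of the background, while the directions were split differently: 44% of members were higher and 18% lower. The median change was 0.49 over members (0.70 in gradient 1 and 0.42 in gradient 2) and −0.43 over all genes. Quantile normalization moved the median of all genes to −0.05 and the calls of all genes from 36.0% higher to 50.6% higher. The member median became 0.83, and fewer members were called lower. Set against the median of all genes, the member median was 0.92 above it, and 0.88 above it after quantile normalization.

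Between the middle and light zones, 24 members were called higher and 4 lower, 56% in all, beside 47.5% of all genes (23.5% higher and 24.1% lower). The median change was 0.74 over members and 0.05 over all genes. Between the dense and middle zones, 6 members were called higher and 10 lower, 32% in all, beside 27.3% of all genes (4.79% higher and 22.5% lower). The member median there was 0.05, with 0.21 in gradient 1 and −0.12 in gradient 2, so it had no direction shared by the gradients. Quantile normalization moved the calls of all genes in this comparison from 17.5% to 43.3% higher. It also called more members higher and moved the member median to 0.38. With the gradient as a block in the fit, more of all genes were called as well. From middle to dense the block called 15 members higher and 16 lower, beside 14.1% and 39.3% of all genes. From light to middle it called 32 higher and 8 lower, beside 37.2% and 34.96%, and from light to dense 27 higher and 12 lower, beside 30.5% and 50.02%. Every member called in any of the 3 comparisons had the same direction in both gradients. So did every gene called among all 11754 tested, which a call over 2 gradients all but requires. The 3 comparisons share zones and are not independent of each other. The counts by role that follow are to be read against these shares of all genes.

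Sorted by the zone with the highest mean TPM, 20 members were highest in the dense zone in both gradients (40%, beside 21.2% of all genes), 13 in the middle zone (26%, beside 24.4%) and 10 in the light zone (20%, beside 42.7%). The remaining 7 were highest in different zones of the 2 gradients. The account by role gives the zones of each family and complex, and differences between them were not tested.

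**Figure D1:**
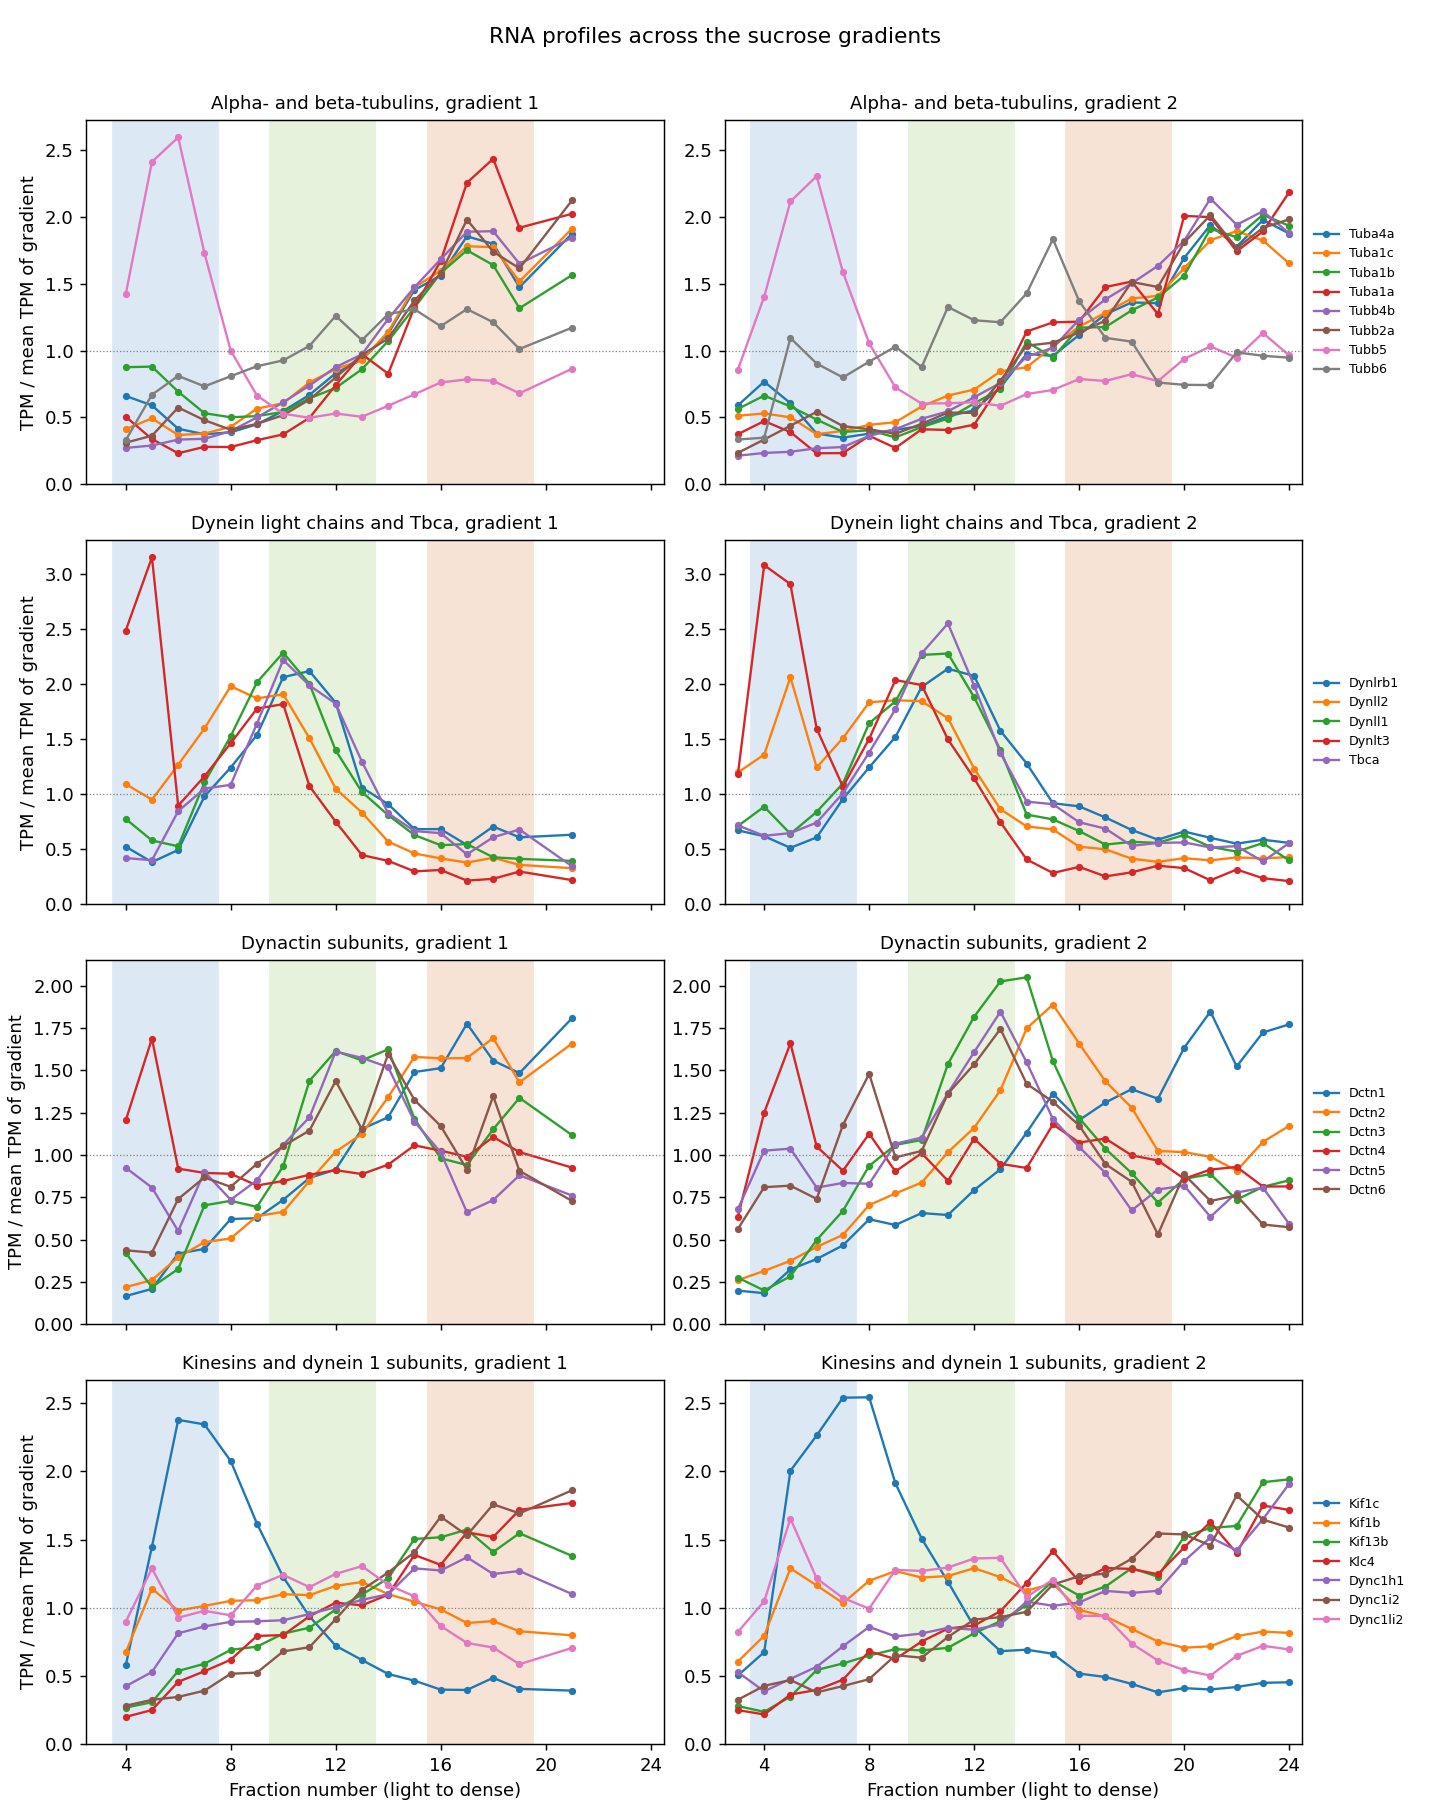
TPM of single RNAs divided by their mean in the gradient, against fraction number, for gradient 1 (left) and gradient 2 (right); shading marks the light, middle and dense zones, and the dotted line is the mean. The 4 alpha-tubulins, Tubb2a and Tubb4b climb toward the dense end, Tubb5 peaks at fraction 6, and Dynlrb1, Dynll1 and Tbca peak at fraction 10 or 11.

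All 4 alpha-tubulin RNAs rose from the light to the dense zone. Tuba4a had zone means of 107 and 128 TPM in the light zone (gradient 1, then gradient 2, here and in what follows), 156 and 136 TPM in the middle zone and 350 and 311 TPM in the dense zone. Its dense mean was 2.81-fold the light mean (change 1.54 ± 0.17 SE, n = 2 gradients, limma with Benjamini-Hochberg adjustment, adjusted p = 0.000907). The rise was mostly in the denser part, since the middle zone was 1.24-fold the light zone (limma adjusted p = 0.149) and the dense zone 2.27-fold the middle zone (limma adjusted p = 0.00818).

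Tuba1a, Tuba1b and Tuba1c lie close together on chromosome 15 and share much of their sequence. Tuba1c went from 47.9 and 61.8 TPM in the light zone to 193 and 180 TPM in the dense zone (change 1.77 ± 0.18 SE, limma adjusted p = 0.000693). Tuba1b went from 77.0 and 58.3 TPM to 162 and 139 TPM (change 1.17 ± 0.20 SE, limma adjusted p = 0.0041), and its middle zone, at 71.4 and 61.5 TPM, was close to its light zone (−0.01 ± 0.20 SE, limma adjusted p = 0.967). Tuba1a was the lowest in level and rose furthest, from 10.8 and 10.4 TPM to 66.1 and 42.9 TPM, a 5.13-fold difference (change 2.27 ± 0.26 SE, limma adjusted p = 0.000996). In each of the 3 genes both dense values were above both light values. The middle minus light change of Tuba1a (0.70 ± 0.26 SE, limma adjusted p = 0.0695) was called with the gradient as a block (limma adjusted p = 0.0103) and after quantile normalization (limma adjusted p = 0.0288).

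The level of each of these copies is uncertain, because most of their sequence cannot be told apart. Of the stretches of 31 bases in the transcript of Tuba1a with the longest coding region, 77.0% also occur in transcripts of another gene, as do 75.4% of those of Tuba1b and 63.9% of those of Tuba1c. The sum of the 3 RNAs does not depend on how shared reads were divided among them: it was 136 and 130 TPM in the light zone, 184 and 173 TPM in the middle zone and 422 and 362 TPM in the dense zone. Tuba4a shares 3.77% of such stretches, so its rise was measured on sequence largely of its own. The coding sequences of Tuba1a, Tuba1b and Tuba1c were 97.6 to 98.4% identical, and that of Tuba4a was 85.3 to 85.9% identical to theirs.

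Among the 4 beta-tubulin RNAs, Tubb4b and Tubb2a climbed with the alpha-tubulins, Tubb5 was highest in the light zone, and Tubb6 had a smaller change. From light to dense limma called 1 higher and 1 lower, beside 22.3% and 39.6% of all genes. With the gradient as a block it called 3 higher and 1 lower, beside 30.5% and 50.02%. Tubb4b went from 61.5 and 47.1 TPM in the light zone through 159 and 112 TPM in the middle zone to 354 and 264 TPM in the dense zone. The dense mean was 5.69-fold the light mean (change 2.48 ± 0.26 SE, limma adjusted p = 0.000776), and both steps were called (1.28 ± 0.26 SE from light to middle, limma adjusted p = 0.0108, and 1.20 ± 0.26 SE from middle to dense, limma adjusted p = 0.0225). In gradient 2 its TPM was higher in each fraction than in the fraction before it from 3 to 21, from 39.3 to 392 TPM.

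Tubb2a differed in level between the gradients, with 81.3 and 39.8 TPM in the light zone and 325 and 122 TPM in the dense zone. Its change was 2.02 in gradient 1 and 1.60 in gradient 2, with a mean of 1.81 ± 0.66 SE that was not called (limma adjusted p = 0.0554). With the gradient as a block, which takes out such a shift in level, its adjusted p in limma was 0.0002. The block also called its changes from light to middle (0.56, limma adjusted p = 0.514 without the block and 0.0148 with it) and from middle to dense (1.25, limma adjusted p = 0.223 and 0.00157). In both gradients the dense zone was above the light zone of the same gradient. Of its 31-base stretches, 56.4% also occur in transcripts of another gene, chiefly Tubb2b, and 64.6% of those of Tubb4b do, chiefly in a Tubb4b pseudogene.

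Tubb5, the beta-tubulin gene expressed in most tissues, had 203 and 186 TPM in the light zone, 51.4 and 60.4 TPM in the middle zone and 74.8 and 79.1 TPM in the dense zone. Its light mean was 3.48-fold its middle mean (change −1.75 ± 0.16 SE, limma adjusted p = 0.0013) and 2.53-fold its dense mean (change −1.29 ± 0.16 SE, limma adjusted p = 0.00129). The profile had a narrow summit at fraction 6 in both gradients, at 259 TPM in gradient 1 and 231 TPM in gradient 2. Its lowest values were 49.6 TPM at fraction 11 of gradient 1 and 58.9 TPM at fraction 13 of gradient 2, after which it climbed slowly, to 113 TPM at fraction 23 of gradient 2. From the middle to the dense zone the change was 0.46 ± 0.16 SE, which was not called (limma adjusted p = 0.0864) and was called with the gradient as a block (limma adjusted p = 0.0252) and after quantile normalization (limma adjusted p = 0.0374). Tubb5 shares 4.43% of its 31-base stretches with other genes.

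Tubb6 was the lowest of the 4, with 16.3 and 12.0 TPM in the light zone, 27.6 and 17.6 TPM in the middle zone and 30.3 and 16.3 TPM in the dense zone. Its dense minus light change of 0.70 ± 0.38 SE was not called (limma adjusted p = 0.154) and was called with the gradient as a block (limma adjusted p = 0.00529). The same held for its middle minus light change of 0.70 ± 0.38 SE (limma adjusted p = 0.18 without the block and 0.00683 with it). Its highest values were at fraction 17 of gradient 1 (33.7 TPM) and fraction 15 of gradient 2 (27.9 TPM). The 4 alpha-tubulins, Tubb2a and Tubb4b were highest at fractions 17 to 21 of gradient 1 and 21 to 24 of gradient 2.

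The beginnings of the beta-tubulin coding sequences are shown because the tubulin reading frame encodes at its start a short run of amino acids that is known to be read on nascent chains when cells adjust tubulin RNA to the level of free dimers, and Tubb5 differed from its paralogs in profile. Bases 1 to 30 of the coding sequence are printed from the start codon, with the start codon and the 3 codons after it in capitals. In build GRCm38, on the minus strand, they lie at chr17:35838024-35838053 for Tubb5, at chr2:25224561-25224590 for Tubb4b and at chr13:34077900-34077929 for Tubb2a. The 30 bases of Tuba4a are added for comparison and are split by an intron within chr1:75217408-75219195, also on the minus strand. Against Tubb5, the capitals differed at 1 base in Tubb4b, 3 bases in Tubb2a and 5 bases in Tuba4a. The differences in Tubb4b and Tubb2a are synonymous, so the 3 beta-tubulins encode the same amino acids there, and Tuba4a does not.
Tubb5: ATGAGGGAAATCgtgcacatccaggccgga
Tubb4b: ATGAGGGAGATCgtgcacctgcaggctggg
Tubb2a: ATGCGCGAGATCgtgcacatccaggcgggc
Tuba4a: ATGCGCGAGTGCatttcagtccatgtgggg
Over the whole coding sequence Tubb5 was 84.8% identical to Tubb2a and 82.7% to Tubb4b. Its profile nevertheless had a Pearson R of −0.298 with Tubb4b over the 22 fractions of gradient 2, where Tubb2a and Tubb4b had an R of 0.988 at 83.7% identity.

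Summed over the family, alpha-tubulin RNA was 242 and 259 TPM in the light zone and 771 and 673 TPM in the dense zone. Beta-tubulin RNA summed to 362 and 285 TPM in the light zone and 784 and 481 TPM in the dense zone. Because Tubb5 made up much of the light zone, the ratio of alpha- to beta-tubulin TPM was 0.669 and 0.909 in the light zone, 0.905 and 1.27 in the middle zone and 0.984 and 1.40 in the dense zone. The ratio was lowest in the light zone in each gradient.

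Tubg1, the gamma-tubulin of centrosomes and other sites where microtubules start, went from 17.3 and 18.2 TPM in the light zone to 84.6 and 67.1 TPM in the middle zone and 112 and 79.1 TPM in the dense zone. It rose 4.28-fold from light to middle (change 2.11 ± 0.23 SE, limma adjusted p = 0.00179) and 5.39-fold from light to dense (change 2.43 ± 0.23 SE, limma adjusted p = 0.000579). The step from middle to dense was not called (0.32 ± 0.23 SE, limma adjusted p = 0.363). Tubg1 was highest at fraction 18 of gradient 1 (131 TPM) and at fraction 15 of gradient 2 (109 TPM), where it lay between 61.4 and 68.3 TPM in fractions 19 to 24. Of its 31-base stretches, 24.2% also occur in transcripts of another gene, chiefly Tubg2.

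Among the 5 tubulin cofactors, 4 were called higher in the middle than the light zone (all but Tbcc), beside 23.5% of all genes. From light to dense 4 were called higher (all but Tbca), beside 22.3% of all genes. Tbca, which holds beta-tubulin on its way to the dimer, had 140 and 152 TPM in the light zone, 378 and 412 TPM in the middle zone and 123 and 127 TPM in the dense zone. It rose 2.70-fold into the middle zone (change 1.47 ± 0.16 SE, limma adjusted p = 0.00176) and fell 3.16-fold beyond it (change −1.63 ± 0.16 SE, limma adjusted p = 0.007). Light and dense zones did not differ beyond their spread (−0.16 ± 0.16 SE, limma adjusted p = 0.401). The value of Tbca may be uncertain, since 38.6% of its 31-base stretches also occur in transcripts of another gene.

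Tbcb, which binds alpha-tubulin, went from 15.3 and 13.9 TPM in the light zone to 89.4 and 75.2 TPM in the middle zone and 87.8 and 57.4 TPM in the dense zone. The middle mean was 5.64-fold the light mean (change 2.46 ± 0.25 SE, limma adjusted p = 0.00163), the furthest rise of a member into the middle zone, and the dense mean was 4.98-fold (change 2.28 ± 0.25 SE, limma adjusted p = 0.000922). Tbcc, which completes the release of the dimer, was 5.75 and 2.95 TPM in the light zone and 47.5 and 14.7 TPM in the dense zone, a change of 2.48 ± 0.66 SE (limma adjusted p = 0.0198). Its rise into the middle zone (change 1.72 ± 0.66 SE) was not called (limma adjusted p = 0.0789) and was called with the gradient as a block (limma adjusted p = 0.00177) and after quantile normalization (limma adjusted p = 0.0393). The gradients differed more in the level of Tbcc than in that of the other cofactors, and in each of them the dense zone was the highest.

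Tbcd and Tbce, which with Tbcc form the assembly that joins the 2 tubulins, had a lower mean level than Tbca and Tbcb. Tbcd went from 11.6 and 11.0 TPM in the light zone to 29.1 and 27.5 TPM in the dense zone (change 1.37 ± 0.17 SE, limma adjusted p = 0.00121). Tbce went from 5.23 and 5.71 TPM to 14.4 and 19.5 TPM (change 1.47 ± 0.23 SE, limma adjusted p = 0.00262). Both had also risen in the middle zone, to 2.19-fold and 2.18-fold of the light mean (limma adjusted p = 0.00339 and 0.015). The middle to dense changes of Tbcc (0.77, limma adjusted p = 0.453) and Tbce (0.47, limma adjusted p = 0.182) were called with the gradient as a block (limma adjusted p = 0.0364 and 0.0254). The 4 cofactors other than Tbca had their dense values above their light values in both gradients.

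Of the 4 RNAs for proteins that bind microtubules, limma called none between the dense and light zones, with 1 (Map4) under 0.05 before adjustment. With the gradient as a block, 1 was called higher and 2 lower, beside 30.5% and 50.02% of all genes. Map4, the widespread stabilizer of microtubules, had 30.2 and 29.5 TPM in the light zone, 44.0 and 43.4 TPM in the middle zone and 44.8 and 37.1 TPM in the dense zone. It was called between the middle and light zones (0.56 ± 0.17 SE, limma adjusted p = 0.0389), a call lost after quantile normalization (limma adjusted p = 0.0505) and with narrower zones (limma adjusted p = 0.0868). Between the dense and light zones its change of 0.46 ± 0.17 SE was not called (limma adjusted p = 0.0569), and it was called with the gradient as a block (limma adjusted p = 0.0122) and after quantile normalization (limma adjusted p = 0.011).

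Pafah1b1, the dynein regulator also known as Lis1, had 63.5 and 52.9 TPM in the light zone, 46.2 and 39.9 TPM in the middle zone and 57.3 and 40.3 TPM in the dense zone. Neither its dense minus light change (−0.20 ± 0.22 SE, limma adjusted p = 0.454) nor its middle minus light change (−0.36 ± 0.22 SE, limma adjusted p = 0.227) was called, the latter being called with the gradient as a block (limma adjusted p = 0.0337), after quantile normalization (0.0445) and with narrower zones (0.0484). Its profile had a peak confined to the lightest fractions, with 101 TPM at fraction 5 of gradient 1 against a median of 50.7 TPM, and 74.3 TPM at fraction 5 of gradient 2 against a median of 38.1 TPM. The zone mean of fractions 4 to 7 spreads this peak out.

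Of the 10 kinesin heavy chains tested, 2 rose from the light to the dense zone, 4 fell and 4 were not called, near the 22.3% higher and 39.6% lower of all genes, with a median change of −0.08 beside −0.43. The fit with the gradient as a block called 4 higher and 4 lower, beside 30.5% and 50.02% of all genes. Kif1c, a motor of the kinesin-3 family that carries vesicles and has a known part in traffic between Golgi and ER, was the most abundant, with 307 and 252 TPM in the light zone, 159 and 143 TPM in the middle zone and 76.8 and 61.8 TPM in the dense zone. It fell 4.03-fold from light to dense (change −1.82 ± 0.19 SE, limma adjusted p = 0.000734), with both steps called (limma adjusted p = 0.0205 and 0.0124). Its summit was 432 TPM at fraction 6 of gradient 1 and 343 TPM at fraction 8 of gradient 2, and in gradient 1 it had been 105 TPM at fraction 4. The peak of Kif1c was therefore inside the gradient and not at its top.

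Kif1b, the paralog of Kif1c known for carrying mitochondria and synaptic vesicle precursors, was level across the zones, with 109 and 106 TPM in the light, 130 and 123 TPM in the middle and 103 and 87.2 TPM in the dense zone. Its dense minus light change was −0.16 ± 0.16 SE (limma adjusted p = 0.409), and its fall from middle to dense (−0.42 ± 0.16 SE, limma adjusted p = 0.106) was called only with the gradient as a block (limma adjusted p = 0.0216). Kif5b, the main conventional kinesin heavy chain of liver, had 23.0 and 18.8 TPM in the light and 34.0 and 21.8 TPM in the dense zone (0.38 ± 0.26 SE, limma adjusted p = 0.249, 0.0398 with the gradient as a block and 0.0376 after quantile normalization). Its middle minus light change (0.47 ± 0.26 SE, limma adjusted p = 0.191) was called with the block too (limma adjusted p = 0.0228).

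Kif13b and Kif21a were the 2 heavy chains called higher in the dense than the light zone without the block, which added Kif5b and Kif3a. Kif13b, a kinesin-3 motor, went from 19.7 and 15.8 TPM in the light zone to 70.0 and 43.6 TPM in the dense zone, 3.20-fold the light mean (change 1.67 ± 0.32 SE, limma adjusted p = 0.00571). Kif21a, a kinesin that also restrains microtubule growth, went from 27.0 and 25.1 TPM to 60.02 and 41.9 TPM (change 0.94 ± 0.22 SE, limma adjusted p = 0.0116). Both had dense values above light values in both gradients. The middle to dense change of Kif13b (0.64 ± 0.32 SE, limma adjusted p = 0.191) was called with the gradient as a block (limma adjusted p = 0.00949) and after quantile normalization (limma adjusted p = 0.0463). Kif3a, a subunit of a kinesin-2 motor, was 2.70 and 2.06 TPM in the light and 4.23 and 3.36 TPM in the dense zone (0.52 ± 0.22 SE, limma adjusted p = 0.0815, and 0.0117 with the block).

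The other heavy chains called were lower in the dense zone. Kif2a, a kinesin that takes microtubules apart at their ends, went from 13.6 and 11.3 TPM in the light zone to 4.91 and 3.99 TPM in the dense zone, 2.80-fold lower (change −1.30 ± 0.21 SE, limma adjusted p = 0.0031). From middle to dense it fell by 0.85 on the log2 scale (limma adjusted p = 0.033), a call that quantile normalization removed (limma adjusted p = 0.103). From light to middle its change of −0.46 ± 0.21 SE (limma adjusted p = 0.123) was called with the gradient as a block (limma adjusted p = 0.0145). Of the 9 transport kinesins tested, 2 were higher and 3 lower in the dense than in the light zone, beside 22.3% and 39.6% of all genes.

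The kinesin light chains, which couple conventional kinesin to cargo, all rose from light to dense, while Kif5b, their partner, was called only with the gradient as a block (limma adjusted p = 0.0398) and after quantile normalization (limma adjusted p = 0.0376). Klc4 went from 35.9 and 22.3 TPM in the light zone to 94.3 and 53.0 TPM in the middle zone and 152 and 77.1 TPM in the dense zone, 3.93-fold the light mean (change 1.97 ± 0.43 SE, limma adjusted p = 0.0099). The 2 lower light chains rose as well, Klc1 from 7.41 and 7.11 TPM to 27.8 and 15.1 TPM (change 1.38 ± 0.32 SE, limma adjusted p = 0.0121) and Klc2 from 4.46 and 2.99 TPM to 17.1 and 8.18 TPM (change 1.45 ± 0.41 SE, limma adjusted p = 0.0249). The middle to dense change of Klc4 (0.61 ± 0.43 SE, limma adjusted p = 0.36) was called with the gradient as a block (limma adjusted p = 0.0104). Whether the light chains differ from Kif5b was not tested. Kif1bp, which binds kinesins of the Kif1 family and holds them off microtubules, went from 6.65 and 7.15 TPM to 35.2 and 22.9 TPM (change 1.96 ± 0.28 SE, limma adjusted p = 0.00195), where among its known partners Kif1b was not called and Kif1c fell.

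The 4 subunits of cytoplasmic dynein 1 were not alike. Dync1i2, the intermediate chain that binds dynactin, went from 18.0 and 22.7 TPM in the light zone to 45.9 and 43.6 TPM in the middle and 88.6 and 71.8 TPM in the dense zone, 3.94-fold the light mean (change 1.93 ± 0.20 SE, limma adjusted p = 0.000734). Dync1li1, a light intermediate chain, went from 15.8 and 14.6 TPM to 48.3 and 35.6 TPM (change 1.40 ± 0.21 SE, limma adjusted p = 0.00242). Dync1h1, the motor heavy chain, went from 24.8 and 18.0 TPM to 48.7 and 36.9 TPM (change 1.01 ± 0.25 SE, limma adjusted p = 0.0153). All 3 had both dense values above both light values. The changes of Dync1h1 from light to middle (0.63, limma adjusted p = 0.0838) and from middle to dense (0.38, limma adjusted p = 0.33) were called with the gradient as a block (limma adjusted p = 0.00256 and 0.0213), the latter also after quantile normalization.

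Dync1li2, the alternative light intermediate chain, moved the other way, with 19.1 and 17.5 TPM in the light, 23.1 and 18.6 TPM in the middle and 13.6 and 11.4 TPM in the dense zone. Its dense minus light change of −0.52 ± 0.21 SE was not called (limma adjusted p = 0.0691) and was called with the gradient as a block (limma adjusted p = 0.00609) and with narrower zones (limma adjusted p = 0.0337). Its dense minus middle change of −0.71 ± 0.21 SE was likewise not called (limma adjusted p = 0.0512) and was called with the block (limma adjusted p = 0.0037), with a pseudocount of 0.1 (0.0496) and with a filter at 10 TPM (0.0378). Over the 22 fractions of gradient 2, the pairwise Pearson R within dynein 1 ran from −0.692 to 0.896. For the motor of cilia, dynein 2, Dync2h1 was near the limit of the test at a mean of 0.986 TPM and was not called (−0.18 ± 0.20 SE, limma adjusted p = 0.455). After quantile normalization its sign was the other way (0.51, limma adjusted p = 0.0472), so no direction is given for it.

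The RNAs of dynein light chains, small proteins that dimerize the intermediate chains and serve as hubs for other proteins too, were highest in the middle zone of both gradients for 4 of the 7 tested, and in the light zone for 2. From light to dense 4 fell and none rose (limma, none also before adjustment), beside 39.6% and 22.3% of all genes. From light to middle 4 rose and 2 fell, beside 23.5% and 24.1%. The fall of Dynlt1a into the middle zone was lost after quantile normalization (limma adjusted p = 0.0905). Dynlrb1 had 144 and 139 TPM in the light zone, 427 and 402 TPM in the middle zone and 153 and 152 TPM in the dense zone. It rose 2.93-fold into the middle zone (change 1.58 ± 0.14 SE, limma adjusted p = 0.00121), fell 2.71-fold beyond it (change −1.42 ± 0.14 SE, limma adjusted p = 0.007) and had its maximum at fraction 11 in both gradients, 511 and 443 TPM. Between the light and dense zones it was not called (0.16 ± 0.14 SE, limma adjusted p = 0.35), except with narrower zones (limma adjusted p = 0.048).

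Dynll1 and Dynll2 encode nearly the same protein, and their RNA profiles had a Pearson R of 0.715 in gradient 2 and 0.838 in gradient 1. Dynll1 was 20.2 and 21.3 TPM in the light, 45.3 and 48.2 TPM in the middle and 13.0 and 14.4 TPM in the dense zone, so it rose into the middle zone (change 1.13 ± 0.17 SE, limma adjusted p = 0.00423) and fell beyond it (change −1.66 ± 0.17 SE, limma adjusted p = 0.007). Dynll2 was 211 and 263 TPM in the light and 228 and 240 TPM in the middle zone, with no call between them (−0.05 ± 0.18 SE, limma adjusted p = 0.832), and fell to 67.9 and 77.6 TPM in the dense zone (change from middle −1.62 ± 0.18 SE, limma adjusted p = 0.007, and from light −1.67 ± 0.18 SE, limma adjusted p = 0.000787). The fall of Dynll1 from light to dense (−0.54 ± 0.17 SE, limma adjusted p = 0.0363) was lost after quantile normalization (limma adjusted p = 0.315) and with narrower zones (limma adjusted p = 0.248). That of Dynll2 was called in all 7 refits with another setting.

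Dynlt3 fell furthest of the members, from 108 and 106 TPM in the light zone through 57.2 and 65.7 TPM in the middle zone to 14.8 and 15.1 TPM in the dense zone, 7.15-fold (change −2.62 ± 0.17 SE, limma adjusted p = 0.000306). Its profile had a pair of maxima in both gradients. In gradient 1 it was 176 TPM at fraction 5, 50.2 TPM at fraction 6 and 102 TPM at fraction 10. In gradient 2 it was 151 TPM at fraction 4, 52.2 TPM at fraction 7 and 99.6 TPM at fraction 9, and from fraction 14 on it was under 20 TPM. The maxima were thus divided by a dip inside the light zone that the zone mean does not show.

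Dynlt1a, Dynlt1c and Dynlt1f are near-identical copies of a gene on chromosome 17, with 67.6 to 96.0% of their 31-base stretches found in other genes' transcripts, and their separate values are uncertain. Dynlt1a fell from 2.12 and 2.23 TPM to 0.361 and 0.401 TPM from light to dense (limma adjusted p = 0.00285, and 0.0909 after quantile normalization), while Dynlt1f rose from 1.83 and 1.02 TPM to 4.68 and 3.99 TPM from light to middle (limma adjusted p = 0.0202). Summed with Dynlt1b, the 4 copies had 16.0 and 12.1 TPM in the light, 38.9 and 28.4 TPM in the middle and 15.4 and 9.30 TPM in the dense zone. The sum was highest in the middle zone in both gradients, as for Dynlrb1 and Dynll1.

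Dynactin is a single large complex, and its 6 RNAs among the members did not all follow the same course. Dctn1, the p150 arm that binds dynein and microtubules, went from 9.96 and 7.92 TPM in the light zone to 29.5 and 17.6 TPM in the middle and 50.9 and 30.5 TPM in the dense zone, 4.55-fold the light mean (change 2.11 ± 0.35 SE, limma adjusted p = 0.00334). Dctn2, dynamitin, the most abundant, went from 66.9 and 62.8 TPM to 180 and 165 TPM and then 308 and 202 TPM, 3.93-fold (change 1.96 ± 0.23 SE, limma adjusted p = 0.00111). Dctn3, which sits with both in the shoulder of the complex, rose from 20.8 and 15.9 TPM to 69.0 and 62.1 TPM in the middle zone (change 1.89 ± 0.25 SE, limma adjusted p = 0.00302) and had 54.9 and 37.2 TPM in the dense zone (change from light 1.38 ± 0.25 SE, limma adjusted p = 0.00526). The 3 shoulder RNAs thus all rose from light to dense.

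The 3 members for the pointed end of the dynactin filament were not called between dense and light. Actr10, also of that end but outside the membership rule, was called higher (change 1.12 ± 0.19 SE, limma adjusted p = 0.00392). Dctn5 had 44.0 and 33.7 TPM in the light, 75.6 and 53.8 TPM in the middle and 45.5 and 30.99 TPM in the dense zone (dense minus light −0.03 ± 0.28 SE, limma adjusted p = 0.923). Dctn6 had 17.1 and 21.2 TPM in the light, 33.2 and 33.8 TPM in the middle and 30.1 and 20.9 TPM in the dense zone, and rose into the middle zone (change 0.81 ± 0.24 SE, limma adjusted p = 0.0381). Dctn4 had 35.4 and 19.6 TPM in the light, 26.5 and 15.7 TPM in the middle and 31.1 and 16.7 TPM in the dense zone (dense minus light −0.16 ± 0.44 SE, limma adjusted p = 0.764).

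Dctn5 and Dctn6 were thus highest in the middle zone in both gradients and Dctn4 in the light zone. With the gradient as a block, the middle minus light changes of Dctn5 (0.71, limma adjusted p = 0.0822 without the block and 0.00225 with it) and Dctn4 (−0.31, limma adjusted p = 0.579 and 0.035) were called, in opposite directions. From middle to dense limma called no dynactin member, with 1 (Dctn5) under 0.05 before adjustment, while the block called Dctn1 (0.78, limma adjusted p = 0.155 without the block and 0.00962 with it) and Dctn2 (0.55, 0.138 and 0.0409) higher. It called Dctn3 (−0.51, limma adjusted p = 0.197 and 0.0228) and Dctn5 (−0.74, 0.102 and 0.00277) lower. In gradient 2 the 6 RNAs peaked at fraction 21 (Dctn1), 15 (Dctn2), 14 (Dctn3), 13 (Dctn5 and Dctn6) and 5 (Dctn4), and in gradient 1 at 21, 18, 14, 12, 14 and 5. The median pairwise Pearson R of dynactin was 0.238 over the 22 fractions of gradient 2 and 0.505 over the 17 fractions of gradient 1. Single pairs ran from −0.307 (Dctn1 and Dctn4) to 0.823 (Dctn5 and Dctn6) in gradient 2 and from −0.455 (Dctn3 and Dctn4) to 0.984 (Dctn1 and Dctn2) in gradient 1.

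**Figure D2:**
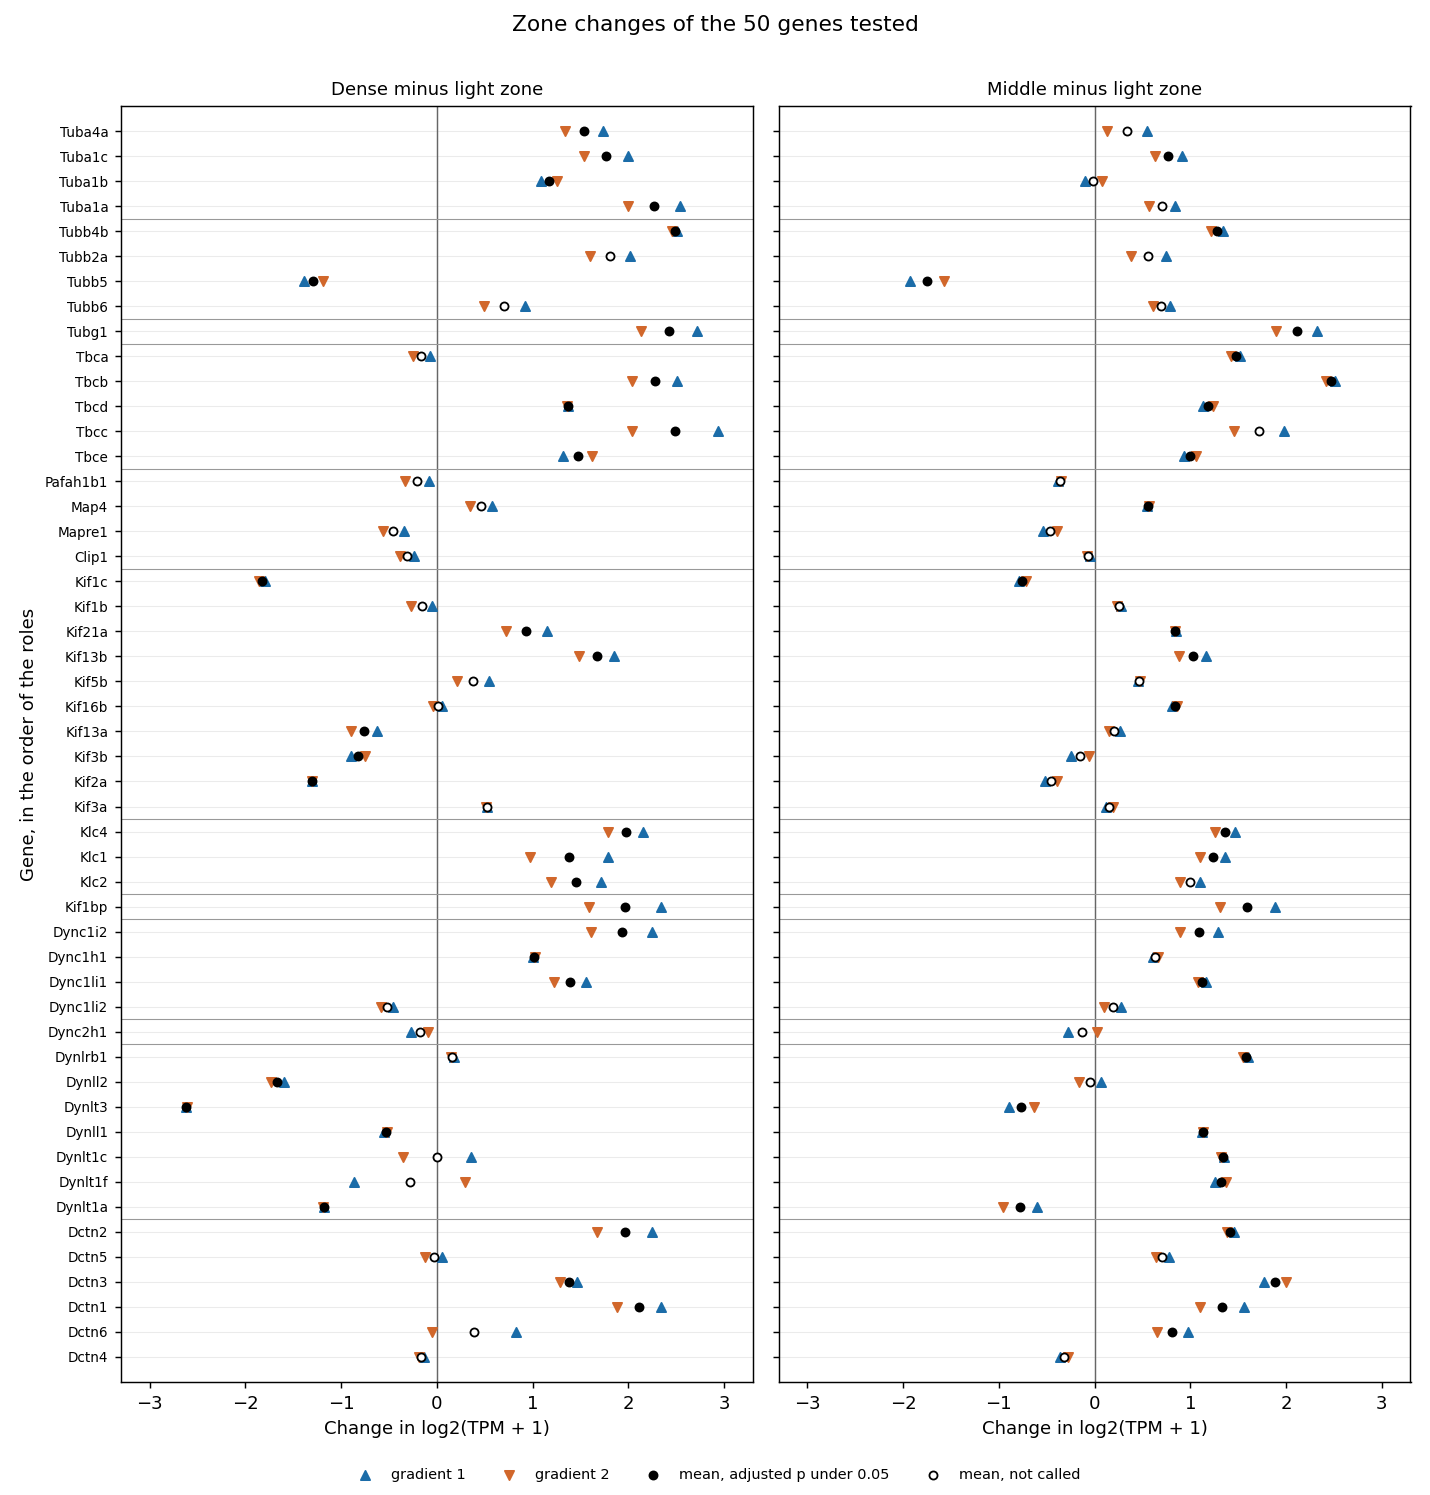
Change in log2(TPM + 1) of the 50 members tested from the light zone to the dense zone (left) and to the middle zone (right). Triangles are the 2 gradients, circles their mean, filled where limma's adjusted p was under 0.05; lines divide the 12 roles. Dynlt3 has the lowest dense minus light mean, −2.62, and Tbcc and Tubb4b the highest, both 2.48.

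Profiles of the same RNA were compared between the gradients over the 17 shared fraction numbers. The median Pearson R over the 50 members was 0.901 (Spearman's rho 0.884), beside 0.899 (rho 0.833) over all genes tested. R was over 0.9 in 25 members (50%, beside 49.8% of all genes), highest in Tubb5 (0.996) and lowest in Kif5b (0.372), whose TPM varied between 19.0 and 39.8 in gradient 1 and between 15.3 and 29.0 in gradient 2. Neighboring fractions are not independent and share a gradient, so these values are descriptions with no p.

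Within roles the median pairwise R over 118 pairs was 0.405 in gradient 2, beside 0.170 over all 1225 pairs of members. The 4 alpha-tubulin RNAs had pairwise R from 0.967 to 0.994 in gradient 2 and from 0.935 to 0.989 in gradient 1. Shared sequence cannot be told apart from a shared profile for Tuba1a, Tuba1b and Tuba1c, while Tuba4a, which shares little, had an R of 0.979 with Tuba1c, 0.994 with Tuba1b and 0.976 with Tuba1a in gradient 2. Together with Tubb2a and Tubb4b, which were picked over Tubb5 and Tubb6 after their values were seen, these 6 RNAs had a median R of 0.976 in gradient 2 and 0.970 in gradient 1. For beta-tubulins as a whole the median R was −0.0598 and 0.166, for kinesin heavy chains 0.343 and 0.0662, and for dynein light chains 0.539 and 0.499. The choice of the 6 favors a high value, so it is not set against those of the roles.

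The center of sedimentation of an RNA was taken as the mean of the 17 shared fraction numbers weighted by TPM. Its median over members was 13.0 in gradient 1 and 12.4 in gradient 2, beside 11.3 and 11.3 over all genes tested. By role it was highest in alpha-tubulins (14.6 and 14.4) and lowest in dynein light chains (9.94 and 11.0). Tuba1a had a center of 15.4 and 15.1, at the percentiles 99.3 and 98.8 of all genes, and Tubb4b one of 15.0 and 15.3, at the percentiles 97.6 and 99.4. At the other end Dynlt3 had a center of 8.52 and 8.64, at the percentiles 10.1 and 7.52, while Tubb5, at 10.1 and 10.5, stood at the percentiles 32.3 and 35.1. Tuba1a and Tubb4b were thus nearer to the extreme of all genes on the dense side than any member was on the light side.

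RNA length was set against position because members range from a coding length of 267 bases (Dynll1 and Dynll2) to 13932 bases (Dync1h1). Across the 50 members, Spearman's rho between the longest annotated transcript and the dense minus light change was −0.405 (Pearson R −0.306 on log10 length), beside −0.101 (R −0.0205) across 11460 genes with a length. With coding length, an alternative chosen after seeing the data, rho was 0.103 (R 0.196) over members and 0.0928 (R 0.0894) over the 10823 genes with a coding length, and with the median length of a gene's transcripts it was −0.159 (R −0.193) over members. The size and sign of rho thus depended on which length was taken. These are descriptions across genes, which are not independent replicates.

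Members with a coding length of at most 500 bases (8 RNAs, Tbca and 7 light chains) had a median dense minus light change of −0.41, beside −0.61 over 994 genes of that length, and a median middle minus light change of 1.22, beside 0.45. The 21 members between 1000 and 2000 bases, where all tubulins lie, had a median dense minus light change of 1.54 beside −0.37 over 4222 genes. The 5 members between 500 and 1000 bases had 0.39 beside −0.47, the 8 between 2000 and 4000 bases 0.42 beside −0.14, and the 8 over 4000 bases −0.08 beside −0.05.

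Other microtubule genes were taken from a list of 75 that leaves out the members, of which 60 were tested. From light to dense 13 were called higher and 18 lower, beside 22.3% and 39.6% of all genes, with a median change of 0.07 beside −0.43. From light to middle 17 were higher and 5 lower, beside 23.5% and 24.1% (median 0.41 beside 0.05). From middle to dense 1 was higher and 17 lower, beside 4.79% and 22.5% (median −0.33 beside −0.28). With the gradient as a block 10 were higher and 29 lower there, beside 14.1% and 39.3% of all genes. The block called 21 higher and 24 lower from light to dense, beside 30.5% and 50.02%. From light to middle it called 31 higher and 9 lower, beside 37.2% and 34.96%. The list holds 6 genes for further parts of dynactin, singled out after their values were seen. Capzb, the beta subunit of the protein that caps actin and the dynactin filament, rose from 67.4 and 65.5 TPM in the light zone to 276 and 218 TPM in the dense zone (change 1.86 ± 0.19 SE, limma adjusted p = 0.00069). Its alpha partners fell, Capza2 from 86.0 and 85.7 TPM to 36.8 and 36.6 TPM (change −1.21 ± 0.15 SE, limma adjusted p = 0.00115) and Capza1 from 49.0 and 39.5 TPM to 22.3 and 15.5 TPM (change −1.15 ± 0.24 SE, limma adjusted p = 0.00768). Of the actin-related proteins, Actr10 rose (change 1.12 ± 0.19 SE, limma adjusted p = 0.00392), Actr1b fell (change −0.63 ± 0.16 SE, limma adjusted p = 0.0172) and Actr1a was not called (0.15 ± 0.27 SE, limma adjusted p = 0.639).

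Chaperonin RNAs, whose proteins fold tubulin and actin, had 7 of 8 called higher in the dense than the light zone (22.3% of all genes), with a median change of 1.49, and 5 of 8 called higher in the dense than the middle zone (4.79% of all genes). Summed, the 8 had 843 and 844 TPM in the light zone and 2157 and 1896 TPM in the dense zone. Among 41 genes of actin and myosin, limma called 19 upward and 7 downward from light to dense, beside 22.3% and 39.6% of all genes, with a median of 0.65 beside −0.43. Alpha- and beta-tubulins, for comparison, had 5 of 8 higher and 1 lower, with a median of 1.65. With the gradient as a block, 7 of these 8 were called higher and 1 lower, and 7 of 8 chaperonin RNAs higher. The block called 26 genes of actin and myosin higher and 10 lower, where all genes had 30.5% and 50.02%. From middle to dense it called all 8 chaperonin RNAs higher, beside 14.1% of all genes. The differences between these lists were not tested.

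In a whole liver, fewer cells of a type and less RNA per cell cannot be told apart, which bears on levels in the 2 gradients. Within a gradient all zones were cut from 1 homogenate, and marker values are shares of the RNA in each zone. The 8 hepatocyte markers, all in both tables and led by Alb, summed to 49015 and 35314 TPM in the light zone, 12352 and 18056 TPM in the middle zone and 17809.7 and 30507 TPM in the dense zone, with 2 called higher and 4 lower from light to dense, beside 22.3% and 39.6% of all genes. The 6 Kupffer cell markers, led by Cd5l, summed to 157 and 149 TPM in the light, 50.7 and 50.5 TPM in the middle and 45.6 and 53.4 TPM in the dense zone, with 5 called lower. The 6 sinusoidal endothelial markers, led by Clec4g, summed to 70.2 and 42.2, 47.2 and 30.04, and 31.1 and 20.6 TPM in the 3 zones, with 4 of 5 tested called lower. The Kupffer and endothelial counts are likewise from light to dense, where 39.6% of all genes were called lower.

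Of 6 stellate cell markers 5 were in both tables, led by Dcn, with 43.7 and 55.0 TPM in the light zone and 12.0 and 18.1 TPM in the dense zone and 4 called lower. Of 5 bile duct markers 4 were, led by Sox9, with 5.80 and 4.49 TPM in the light zone and 7.21 and 5.74 TPM in the dense zone, and of the 3 tested none was called (1 higher with the gradient as a block). Of 5 red cell markers 3 were, led by Hba-a1, with 394 and 300 TPM in the light zone and 89.0 and 77.2 TPM in the dense zone, and 2 were called lower (with the block also 1 higher). Of 5 dividing cell markers 2 were, led by Cdk1, with 1.41 and 1.16 TPM in the light zone and 3.86 and 2.59 TPM in the dense zone, and the 1 tested was called higher. These counts are from light to dense, where 22.3% of all genes were called higher and 39.6% lower. With the block these shares were 30.5% and 50.02%.

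Of the 5 neuron markers only Syt1 was in both tables, with 6.34 and 18.0 TPM in the light zone and 0.674 and 3.18 TPM in the dense zone. Summed markers of hepatocytes, Kupffer, endothelial, stellate and red cells were thus higher in the light than in the dense zone of both gradients, as sums that the most abundant markers lead. The part of cell types in the profiles of the members was not tested.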

How the data were processed

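The authors removed ribosomal RNA from the RNA of each fraction, built strand-specific libraries, made reads with bcl2fastq 2.16.0.10 and quantified them with Kallisto on RefSeq transcripts of mm10. They deposited a table of TPM by gene symbol for each of the 2 gradients, in which every gene exceeds 1 TPM somewhere. The version of Kallisto and the summing of transcripts to genes are not given in the sources used here. The deposited TPM were used as given, in 39 libraries, with no count model, and the depth per library is unknown.

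Genes in both tables with a mean of at least 1 TPM over the zone libraries were tested with limma (version 3.58.1 in R 4.3.3, empirical Bayes with trend) on log2(TPM + 1), averaged over the 4 fractions of a zone, in a fit of 6 zone means, with Benjamini-Hochberg adjustment over 11754 genes. The procedure was tested on simulated data. The gradient pairs the zones, since those of a gradient come from the liver of the same mouse, and their deviations correlated (R of 0.665 for light and middle, 0.54 for light and dense, 0.798 for middle and dense). The blocked fit was an alternative to the main fit, and its p is given where it changed a call, for genes named by the rule below.

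Members and lists were chosen with earlier results of these data known. Named genes were the most abundant member of each role, members with a mean of at least 20 TPM, the 5 furthest called rises and falls of each comparison, and all dynactin, dynein 1 and cofactor members. Tubb6, Kif3a, Klc1 and Klc2 were named after their values were seen, as were those at the ends of a range. Lengths, coordinates and coding sequences came from GENCODE M21 (GRCm38), read with Biopython 1.88, and all 50 members tested had a length. Shared sequence was counted over all 31-base stretches of a transcript against the GENCODE transcripts of all other genes. The authors' TPM came from RefSeq transcripts, and whether those held the same genes was not checked. Alternatives were another pseudocount (0.1), other filters (none, and 10 TPM), the block, rescaling without the 50 most abundant genes, quantile normalization, narrower zones, each gradient alone, fraction numbers shifted by 1, logged profiles, all fractions of gradient 2 and other lengths. Values were computed with NumPy 2.4.6, pandas 2.3.3 and SciPy 1.17.1, and plotted with Matplotlib 3.10.9.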

Additional observations from a re-analysis of the deposited data

How the results depend on the processing

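Each setting was changed alone, over 120 results for named genes (40 genes in 3 comparisons), or 108 with a filter at 10 TPM, which left out 4 of the genes. With the gradient as a block, 26 of these passed the threshold that had not, and no call was lost. The block called 31 members between the dense and middle zones (15 higher, 16 lower) where the fit without it called 16 (6 and 10), while its share of all genes called went from 27.3% to 53.4%. Between the middle and light zones it called 8 lower in place of 4, where all genes went from 24.1% to 34.96%. By construction it takes differences in level between the gradients out of the error and leaves every estimated change as it was.

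Quantile normalization kept 104 results, added 10 calls, removed 5 and turned Dync2h1 between the dense and light zones to 0.51. It called 5 members lower between those zones (9 without it) and 12 higher between the dense and middle zones, with member medians of 0.83 and 0.38. Among all genes the same counts went from 4658 to 3504 and from 563 to 1228. Narrower zones kept 113, added 5 and removed 2 calls, while the pseudocount, the filters and the rescaling added at most 2 and removed none. A filter at 10 TPM left 44 members, with a dense minus light median of 0.82. The median of all genes also moved with that filter, from −0.43 to −0.14, and the member median was 0.96 above it (0.92 without the filter).

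In single gradients, as values with no test since no residual degrees of freedom were left, 109 of the 120 results had the same sign in both. The other 11 were not called. The member median was 0.42 to 0.70 from light to dense and −0.12 to 0.21 from middle to dense, where it turned without gradient 1. For profile agreement between gradients, the median R was 0.848 and 0.845 with fraction numbers shifted by 1 in either direction (0.901 without a shift). The median R within roles was 0.497 with logged profiles and 0.35 in gradient 1 (0.405 as reported), and the median center was 13.9 over all fractions of gradient 2, which include denser ones. For transcript length against change, rho was −0.159 with median transcript length and, in alternatives chosen after seeing the data, 0.103 with coding length and −0.397 to −0.396 in single gradients. Apart from the effects of construction named here, the cause was not tested. With 2 gradients and unknown depth, changes of low RNAs are the least certain.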

Other observations

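The RNAs of the cytosolic chaperonin, whose 8 different subunits form the ring that folds tubulin and actin, differed among themselves in the gradients. Cct3 went from 39.1 and 38.8 TPM in the light zone to 335 and 265 TPM in the dense zone (change 2.99 ± 0.17 SE, n = 2 gradients, limma with Benjamini-Hochberg adjustment, adjusted p = 0.000301). Cct8 went from 50.0 and 51.0 TPM to 291 and 249 TPM (change 2.42 ± 0.16 SE, limma adjusted p = 0.000306). Both had all dense values above all light values.

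Tcp1, the subunit after which the ring is named, had 193 and 202 TPM in the light zone, 151 and 139 TPM in the middle zone and 203 and 193 TPM in the dense zone, and was not called between dense and light (0.02 ± 0.14 SE, limma adjusted p = 0.896). Cct4 went from 124 and 114 TPM to 169 and 159 TPM, a smaller rise that was called (change 0.48 ± 0.14 SE, limma adjusted p = 0.0308). The median pairwise Pearson R of the 8 profiles was 0.907 over the fractions of gradient 2 and 0.9001 in gradient 1, with a lowest value of 0.140 and 0.303. These 4 subunits were chosen after their values were seen, as the ends of the range.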
